A study of Mus musculus with 36 samples.

Results

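By 24 h after lipopolysaccharide (LPS), livers of mice kept at 22 °C and at 30 °C had changed by different amounts in 779 of 8702 tested genes. These genes are described here through the interaction of temperature and LPS at 24 h, which is the change from 0 h to 24 h at 30 °C minus the same change at 22 °C. A positive interaction means that a transcript ended higher at 30 °C, relative to its 0 h level, than at 22 °C. A negative one means that it ended lower. Genes said to be called higher or lower are those with a called positive or negative interaction, whatever their level at 24 h. All mice were of the C57BL6/J strain and the labels give no transgene or mutation. The groups were 22 °C at 0 h (n = 4), 30 °C at 0 h (n = 5), 22 °C at 24 h (n = 5) and 30 °C at 24 h (n = 5), which are 19 of the 36 libraries of the series. The other libraries, from 4 h and 12 h, helped to estimate the spread and are cited where a time course is given. Of the 34829 genes in the deposited table, 8702 had a mean signal of at least 5 over the 36 libraries and were tested.

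LPS, a molecule from the outer membrane of Gram-negative bacteria, is sensed through Toll-like receptor 4. Its injection leads the liver to release acute phase proteins, to respond to interferons and to lower many of the transcripts that serve metabolism. At 22 °C a mouse spends much of its energy on keeping warm, and at 30 °C it spends little. The series compares both temperatures to ask how these demands bear on the response to LPS. The labels name no mice kept to 24 h without LPS, so that LPS, the injection, feeding and the time of day cannot be told apart in a change since 0 h. They are also silent on whether the libraries of a group stand for different animals. The p-values therefore reflect the spread among these libraries only, which may be technical.

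Levels are the deposited signal, called scaled reads per base by the authors, and differences are on the log2(signal + 1) scale, given ± SE. A mean signal is given ± SD over the libraries of its group. Depth ran from 717238 to 985331 estimated reads at 22 °C and 0 h, from 556798 to 829959 at 30 °C and 0 h, from 778613 to 931384 at 22 °C and 24 h and from 710064 to 2295080 at 30 °C and 24 h. Depth thus moved with the group, because 3 of the 5 libraries at 30 °C and 24 h held over 1200000 reads. A signal of 3 reads was 1.51 to 5.05, and values below that are little more than 0. The summed signal of the 12 hepatocyte markers, from 36581 to 46848 at 22 °C and 0 h to 60146 to 68199 at 30 °C and 24 h, marked every group as liver. Replicate 3 at 30 °C and 0 h stood apart. Its median correlation with the other libraries of its group was 0.839, against 0.87 to 0.927 for the other 18 libraries in theirs. Its 17 neutrophil and monocyte markers summed to 343, against 79 to 118 in the other libraries at 0 h, and it was the shallowest of the 19. Without that library 636 genes were called, and the values without it are given below where they differ most.

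Of the 8702 tested genes, 779 passed in the interaction (8.95%, limma adjusted p under 0.05), 441 with a positive value (5.07%) and 338 with a negative one (3.88%). The median interaction of all tested genes was -0.04. With unadjusted p under 0.05 there were 1952, and the adjusted p nearest to the threshold was 0.0499 inside it and 0.0502 outside. Without the 3 deepest libraries at 30 °C and 24 h, which leaves 2 in that group, 422 genes were called, 215 positive and 207 negative, and all 779 kept their direction. At 4 h the same interaction was called for 1 gene (0.0115%) and at 12 h for 24 (0.276%), 6 positive (0.0689%) and 18 negative (0.207%). Both of those values use the same 0 h libraries as the one at 24 h. The difference of 30 °C minus 22 °C passed for 660 of the 779 at 24 h, for 22 at 0 h and for 106 at neither time. Over all tested genes it passed in 18.6% at 24 h (9.93% higher and 8.71% lower) and in 0.506% at 0 h (0.0919% higher and 0.414% lower). The libraries of both temperatures did not overlap at 24 h in 451 of the 779 and in 11.3% of all tested genes (5.62% with 30 °C above and 5.72% below). These counts describe the 779 genes only, since the interaction that chose them is computed from the same libraries.

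Sorting the 779 genes by their change at each temperature gave 5 main patterns, drawn in the plot of changes at both temperatures. A change at 22 °C passed in 37.0% of all tested genes and a change at 30 °C in 29.7%. The most frequent pattern was a change at 22 °C with 30 °C near its 0 h level, meaning a change that did not pass and was under 0.5 on the log2 scale. It held 305 genes, and 232 of these had changed at 30 °C at 4 h or 12 h and so had come back by 24 h, 134 of them with a positive interaction and 98 with a negative one. A further 141 genes changed in the same direction at both temperatures but further at 22 °C. The 35 genes that moved further at 30 °C included 22 that fell further there, with a median change of -4.63 at 30 °C against -2.52 at 22 °C. In 50 genes the changes had opposite signs and both passed, and 39 of these fell at 22 °C and rose at 30 °C. The mirror image of the first pattern, a change at 30 °C with 22 °C near 0 h, held 114 genes. The last 134 genes passed at a single temperature or at neither. The opposite pattern held 26 genes without replicate 3 at 30 °C and 0 h, and 28 without replicate 3 at 30 °C and 24 h. It held 23 without the 3 deepest libraries.

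**Figure D1:**
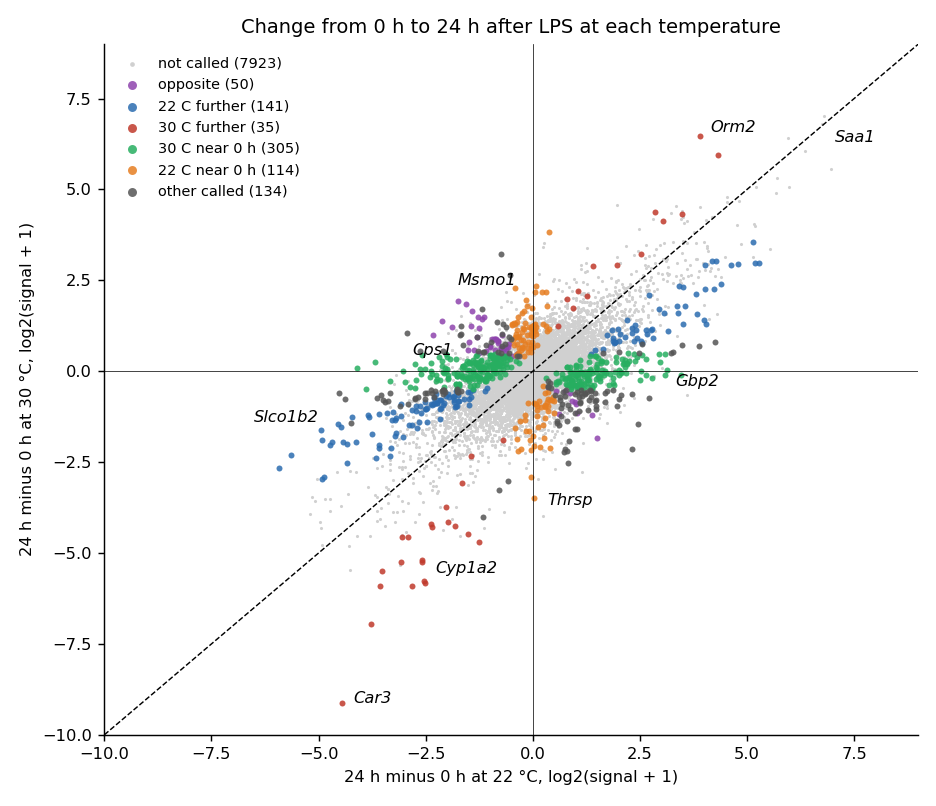
Each point is 1 of 8702 tested genes, placed by its log2 change from 0 h to 24 h at 22 °C (horizontal) and at 30 °C (vertical). The 779 genes with a called interaction are coloured by pattern with their counts, the other genes are grey, and the dashed line marks equal changes. Called genes lie to the left and right along the horizontal axis, where 30 °C was near its 0 h level. At the lower left, a tail below the dashed line, led by Car3, fell further at 30 °C. Called genes above that line there fell further at 22 °C.

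**Figure D2:**
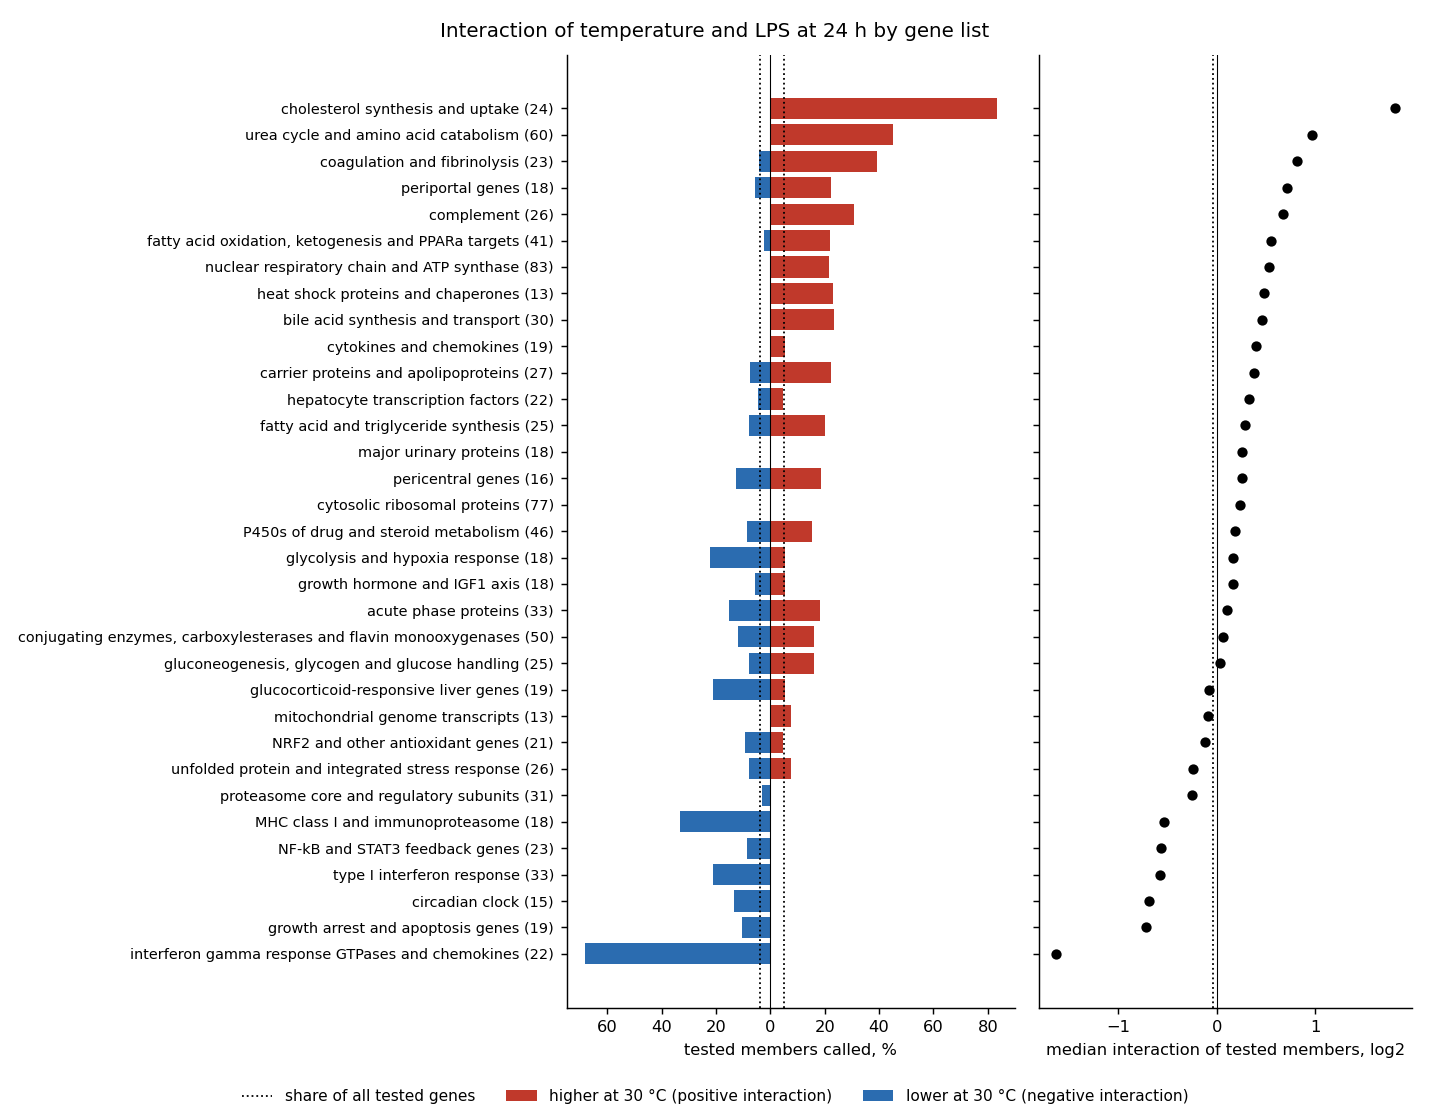
Gene lists with at least 10 tested members (number in brackets), ordered by median interaction. The left panel gives the percentage of tested members with a called positive (red) or negative (blue) interaction, with the shares over all tested genes as dotted lines. The right panel gives the median log2 interaction with the median of all tested genes dotted. Cholesterol synthesis stands at the top with 83.3% called and the interferon gamma list at the bottom with 68.2%.

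Among lists with at least 10 tested members, cholesterol synthesis and uptake had the highest share of called members. These genes encode the chain of enzymes from acetyl-CoA to cholesterol and proteins of cholesterol uptake, and most are driven by the transcription factor SREBP2 when sterols are scarce. Of 24 tested members, 20 were called with a positive interaction and 0 with a negative one, with a median of 1.81 against -0.04 over all tested genes. From 0 h to 24 h, 20 members fell and 0 rose at 22 °C, while 3 fell and 9 rose at 30 °C. Over all tested genes 18.0% fell and 19.0% rose at 22 °C, and 14.4% and 15.3% at 30 °C. Without the 3 deepest libraries 15 members were called, and without replicate 3 at 30 °C and 0 h the count was 20.

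Msmo1, a sterol C4-methyl oxidase late in the pathway (chr8:64718139-64733792, GRCm38), gave the smallest p of the 8702 genes. At 22 °C its signal was 293, 236, 305 and 414 at 0 h and 101, 57.5, 88.9, 149.9 and 154 at 24 h. The values at 30 °C were 112, 95.6, 104, 78.4 and 146 at 0 h and 349, 330.0, 425, 327 and 520.5 at 24 h. The libraries of both temperatures did not overlap at either time, and their order was the reverse at 24 h of that at 0 h. The log2 change was -1.55 ± 0.25 at 22 °C and 1.86 ± 0.23 at 30 °C, with an interaction of 3.41 ± 0.34 (limma adjusted p = 1e-07, n = 4 and 5 at 0 h, 5 and 5 at 24 h).
Hmgcs1, the cytosolic HMG-CoA synthase at the entrance of the pathway (chr13:119690379-119708260), had a signal of 952, 1153, 1370.2 and 1743 at 22 °C and 0 h and of 169.8, 124, 146, 281 and 275 at 24 h. At 30 °C the values were 636, 395, 786, 622 and 742 at 0 h and 785, 550.4, 743, 449.7 and 1249 at 24 h. The 0 h and 24 h libraries overlapped at 30 °C, whereas at 22 °C every library had dropped far below its 0 h range. The interaction was 2.95 ± 0.40 (limma adjusted p = 1.1e-05). Hmgcs1 had been low at 12 h at both temperatures, with a mean of 320.3 ± 24.8 (SD, n = 5) at 22 °C and 219 ± 50.1 (n = 4) at 30 °C. At 24 h the means were 199 ± 74.1 and 755 ± 308 (n = 5 each).

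Other steps of the pathway were changed in the same direction. Idi1, which isomerises isopentenyl diphosphate, went from 106 ± 19.6 to 22.1 ± 11.1 at 22 °C and from 38.2 ± 11.3 to 75.8 ± 20.99 at 30 °C (interaction 3.31 ± 0.45, limma adjusted p = 1.1e-05). Cyp51, the lanosterol demethylase, went from 56.1 ± 10.03 to 24.9 ± 8.49 at 22 °C and from 23.99 ± 7.16 to 65.4 ± 17.2 at 30 °C (interaction 2.61 ± 0.35). Squalene epoxidase, Sqle, went from 81.3 ± 16.4 to 63.3 ± 24.5 at 22 °C and from 30.5 ± 11.1 to 144 ± 35.8 at 30 °C (interaction 2.70 ± 0.43). The interactions of Fdps and Fdft1, which make farnesyl diphosphate and squalene, were 2.63 ± 0.48 and 2.08 ± 0.32. Both genes were named after their values were seen. The level at 0 h is part of these values. At 0 h 4 members were lower at 30 °C than at 22 °C, against 0.414% of all tested genes. At 24 h 20 were higher, against 9.93% of all tested genes.

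The promoter of Hmgcs1 is shown because SREBP factors bind sites of this kind in sterol genes. The window is the 250 bases before the RefSeq start (GRCm38.p6), 5′ to 3′ on the strand of the gene, with the match to the sterol response type motif in capitals.
Hmgcs1, chr13:119690101-119690350, plus strand: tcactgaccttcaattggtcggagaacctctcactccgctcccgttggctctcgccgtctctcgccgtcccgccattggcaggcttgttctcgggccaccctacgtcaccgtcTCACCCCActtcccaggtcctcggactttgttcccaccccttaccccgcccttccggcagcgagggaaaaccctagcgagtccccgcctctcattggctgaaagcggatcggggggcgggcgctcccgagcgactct
The motif searched was TCACNCCA on both strands, chosen after the results were seen. It was found in 3 of 16 cholesterol genes with a window and in 4.20% of all 27025 genes with one. In Hmgcs1 it lies 137 to 130 bases before the start. The E-box CACGTG was in 4 of 16 of these windows, CCACG in 11 of 16 and TATAAA in 0 of 16. Among tested genes with a window the shares were 10.3%, 45.7% and 8.75%, and among all genes with one 6.86%, 31% and 14.3%.

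**Figure D3:**
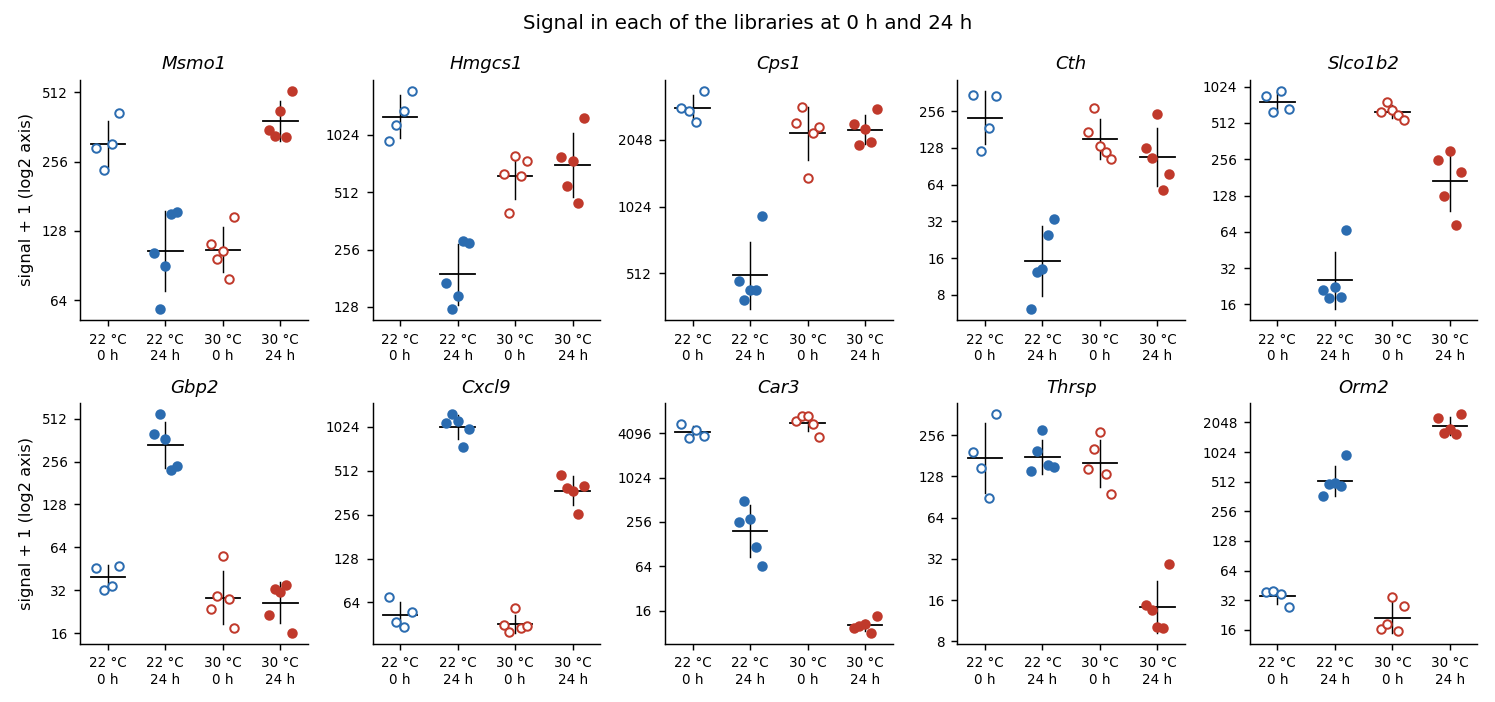
Signal + 1 on a log2 axis in each of the 19 libraries, in blue at 22 °C and red at 30 °C, open at 0 h and filled at 24 h, with the mean (bar) and SD (line) on the log scale. The filled blue and red points of all 10 genes are separate at 24 h, with Msmo1, Hmgcs1, Cps1, Cth, Slco1b2 and Orm2 higher at 30 °C and Gbp2, Cxcl9, Car3 and Thrsp higher at 22 °C. These genes were picked from the called ones, of which 451 of 779 were separate in this way, against 11.3% of all tested genes.

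Interferon gamma response genes formed the second group, and at 24 h 16 of 22 tested members were lower at 30 °C than at 22 °C, against 8.71% of all tested genes. Interferon gamma induces guanylate-binding proteins and immunity-related GTPases, which attack microbes inside cells, and the chemokines that draw T cells. Of 22 tested members of that list, 15 were called with a negative interaction and 0 with a positive one (median -1.63). At 22 °C 12 were still above 0 h at 24 h and 1 was below, while at 30 °C 1 was above and 6 were below. The count was 12 without the 3 deepest libraries, and without replicate 3 at 30 °C and 0 h it was 15. Reads of the Gbp genes and of the H2-Q genes can be shared with near-identical copies, so their values are uncertain one by one.

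Gbp2, a guanylate-binding protein (chr3:142620602-142638008), had a signal of 45.2, 31.1, 33.4 and 46.5 at 22 °C and 0 h and of 398, 547, 364, 221 and 237 at 24 h. For 30 °C they were 22.6, 28.3, 55.2, 26.8 and 16.5 at 0 h and 20.4, 31.96, 30.4, 33.9 and 15.2 at 24 h. All 5 libraries at 22 °C were high at 24 h, and the 5 at 30 °C lay within or just below the range of their own 0 h libraries. The interaction was -3.20 ± 0.36 (limma adjusted p = 9.6e-07). At 4 h the means were 1488 ± 221 (SD, n = 4) at 22 °C and 1467 ± 193 (n = 4) at 30 °C, with an interaction at 4 h of 0.45 ± 0.39 (limma adjusted p = 0.90). At 12 h the means were 1159.8 ± 219 (n = 5) and 765 ± 143 (n = 4).
Igtp, an immunity-related GTPase, went from 54.5 ± 10.1 to 209.7 ± 69.8 at 22 °C and from 72.01 ± 14.5 to 62.8 ± 12.3 at 30 °C (interaction -2.07 ± 0.30, limma adjusted p = 2.7e-05). Its means at 12 h, 551 ± 151 (SD) at 22 °C and 773 ± 116 at 30 °C, were in the other order from those at 24 h. Gbp6 went from 58.98 ± 14.5 to 209 ± 59.3 at 22 °C and from 66.2 ± 16.9 to 50.2 ± 9.16 at 30 °C, and Irgm1, named after its values were seen, went from 53.7 ± 7.52 to 156 ± 65.1 at 22 °C and from 66.3 ± 24.6 to 48.9 ± 14.8 at 30 °C. Gbp7 rose at 22 °C and fell at 30 °C, from 109 ± 11.1 to 169 ± 34.5 at 22 °C and from 105 ± 28.4 to 45.2 ± 7.78 at 30 °C (interaction -1.78 ± 0.25).
Cxcl9, a chemokine for T cells (chr5:92321347-92328079), rose at both temperatures and further at 22 °C. Its signal was 68.3, 46.1, 42.6 and 53.8 at 22 °C and 0 h, and 1084, 1245, 1117, 747 and 983 at 24 h. At 30 °C it was 43.996, 39.3, 57.5, 41.97 and 42.97 at 0 h and 475, 391, 373, 257 and 401 at 24 h. No library at 30 °C reached the lowest value at 22 °C at 24 h, and all stood above their 0 h values. The interaction was -1.25 ± 0.22 (limma adjusted p = 0.00044).

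Fewer members were called in the lists of type I interferon and MHC class I genes. Of 33 type I genes, 7 had a called negative interaction and 0 a positive one (21.2%, against 8.95% of all tested genes, median -0.58). Xaf1, an apoptosis-linked interferon gene, went from 3.05 ± 0.876 to 25.4 ± 9.81 at 22 °C and from 6.62 ± 1.91 to 6.67 ± 3.37 at 30 °C (interaction -2.76 ± 0.42, limma adjusted p = 6.9e-05). Isg15, a ubiquitin-like modifier, went from 36.3 ± 4.12 to 98.2 ± 37.6 at 22 °C and from 39.7 ± 19.6 to 30.9 ± 5.68 at 30 °C (interaction -1.55 ± 0.38). Irf7, a transcription factor of the pathway, had an interaction of -1.46 ± 0.33. Rsad2, which encodes the antiviral protein viperin, went from 194 ± 10.8 to 122 ± 57.3 at 22 °C and from 238 ± 116 to 23.6 ± 10.04 at 30 °C (interaction -2.47 ± 0.59) and fell below 0 h at 30 °C. One of its 0 h libraries, replicate 3 at 30 °C, was at 443, and the adjusted p was 0.017 without it. Of 18 MHC class I and immunoproteasome genes, 6 were called with a negative interaction and 0 with a positive one (33.3%, against the same 8.95%). Psmb10, a catalytic subunit of the immunoproteasome, went from 40.7 ± 14.6 to 129 ± 28.9 at 22 °C and from 51.4 ± 15.9 to 34.2 ± 11.3 at 30 °C (interaction -2.28 ± 0.34, limma adjusted p = 4.8e-05). H2-Q4 and H2-Q6, non-classical class I genes, had interactions of -1.34 ± 0.33 and -1.51 ± 0.40, and Tapbpl, a peptide editor for class I, of -1.34 ± 0.34. Without the 3 deepest libraries the adjusted p of H2-Q4 was 0.07. In a fit of the 4 groups alone that of Tapbpl was 0.057, and 3 of the 18 genes were called. Of 5 tested MHC class II genes, 0 were called with a negative interaction and 1 with a positive one (median 0.04). The called one was Ctss, a protease that readies class II molecules for peptide loading, which went from 86.7 ± 10.4 to 60.6 ± 20.98 at 22 °C and from 74.4 ± 15.6 to 126 ± 29.5 at 30 °C (interaction 1.31 ± 0.31, limma adjusted p = 0.0067).

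Promoters of 3 of these genes are shown because their starts carry the motif that interferon regulatory factors and STAT complexes bind. Each is the 250 bases before the RefSeq start (GRCm38.p6), 5′ to 3′ on the strand of the gene. Capitals mark GAAANNGAAA, the interferon response type, and TTCNNNGAA, the STAT type, on either strand.
Gbp7, chr3:142530086-142530335, plus strand: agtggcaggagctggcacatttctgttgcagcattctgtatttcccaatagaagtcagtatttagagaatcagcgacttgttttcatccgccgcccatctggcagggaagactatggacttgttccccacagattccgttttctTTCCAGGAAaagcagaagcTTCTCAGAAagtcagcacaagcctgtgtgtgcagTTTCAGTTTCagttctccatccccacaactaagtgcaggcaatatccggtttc
Igtp, chr11:58199306-58199555, plus strand: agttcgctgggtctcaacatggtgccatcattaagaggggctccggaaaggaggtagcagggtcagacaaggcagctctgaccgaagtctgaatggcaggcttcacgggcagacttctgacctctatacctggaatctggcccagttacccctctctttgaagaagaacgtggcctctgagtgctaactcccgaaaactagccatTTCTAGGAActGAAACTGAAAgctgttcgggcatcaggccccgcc
Isg15, chr4:156200819-156201068, minus strand: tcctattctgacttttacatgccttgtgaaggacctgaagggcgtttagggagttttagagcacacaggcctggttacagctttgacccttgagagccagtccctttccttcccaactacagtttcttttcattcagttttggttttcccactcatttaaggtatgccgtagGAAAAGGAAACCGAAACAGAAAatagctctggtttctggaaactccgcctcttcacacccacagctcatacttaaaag
In Igtp both motifs stand side by side, with the STAT type 45 to 37 and the interferon type 34 to 25 bases before the start. In Isg15 there are 3 overlapping interferon type matches, 78 to 57 bases before it. In Gbp7 the interferon type lies 53 to 44 bases before the start, on the other strand, with STAT type matches upstream of it. GAAANNGAAA was in the window of 11 of 14 tested genes of the interferon gamma list and 10 of 24 of the type I list, against 3.46% of all genes with a window. TTCNNNGAA was in 7 of 14 and 5 of 24, against 8.13%. Over all called genes with a negative interaction, the interferon type was in 7.72% of windows, and in 2.65% for those with a positive one. A match describes these letters and does not show that a factor was bound.

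**Figure D4:**
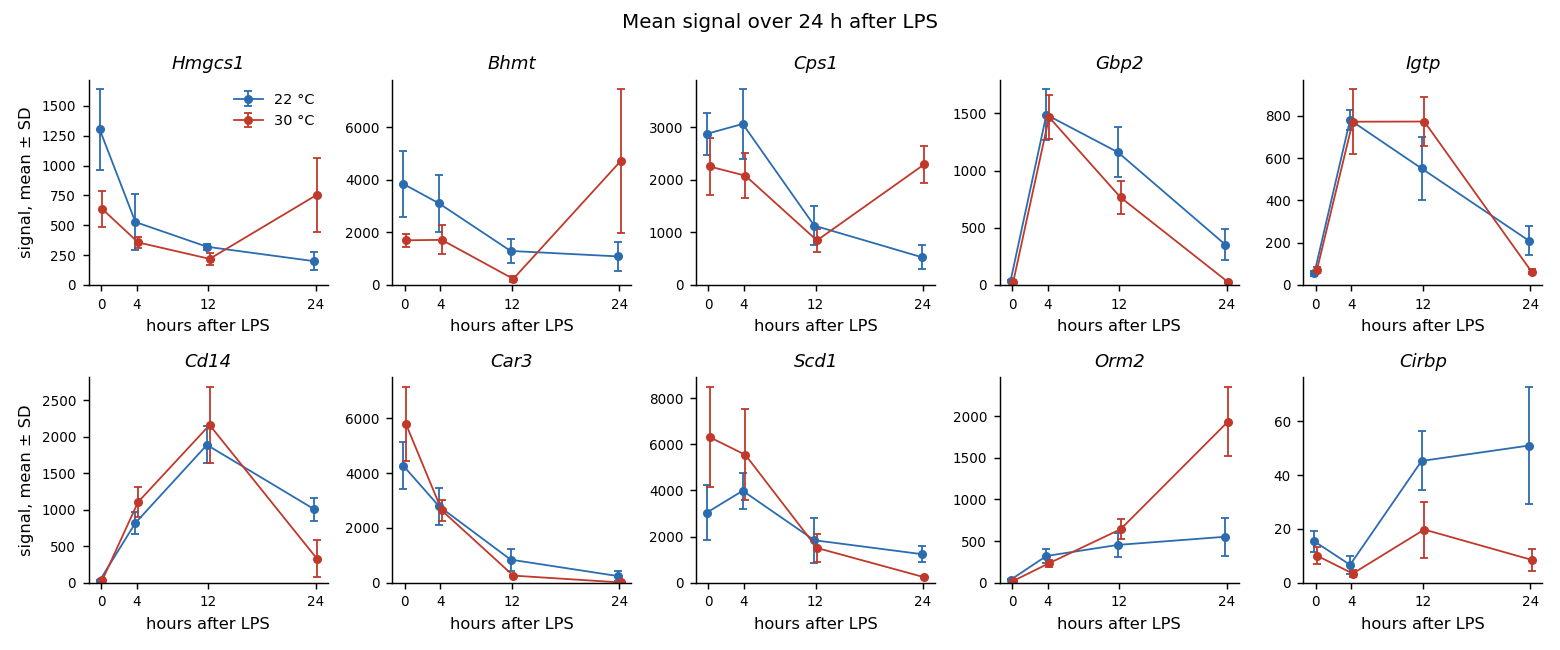
Mean signal ± SD at 0, 4, 12 and 24 h after LPS at 22 °C (blue) and 30 °C (red), with 4 or 5 libraries per point and a linear axis from 0. Hmgcs1, Bhmt and Cps1 were low at both temperatures at 12 h and high at 30 °C at 24 h, while the peaks of Gbp2, Igtp and Cd14 had come down further at 30 °C by 24 h.

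Amino acid catabolism and the urea cycle, work of hepatocytes that turns amino acids into fuel and urea, was the list with the most called members. Of 60 tested genes, 27 were called with a positive interaction and 0 with a negative one (median 0.96). At 22 °C 41 fell and 7 rose, and at 30 °C 28 fell and 16 rose. Leaving out the 3 deepest libraries gave 19 calls, and without replicate 3 at 30 °C and 0 h the count was 26.
Cps1, carbamoyl phosphate synthetase, commits ammonia to the urea cycle (chr1:67123026-67231259). Its signal at 22 °C was 2845, 2772, 2461 and 3412 at 0 h and 472, 388, 431, 432 and 925 at 24 h. The values at 30 °C were 2450.2, 2879.9, 1377, 2203 and 2348 at 0 h and 2426, 1938, 2294, 1997 and 2806 at 24 h. At 30 °C the 0 h and 24 h libraries overlapped, and at 22 °C every library at 24 h lay below every other of the 19. The interaction was 2.56 ± 0.33 (limma adjusted p = 1.1e-05). At 12 h Cps1 had stood at 1128 ± 374 (SD, n = 5) and 846 ± 221 (n = 4), below 0 h at both temperatures.
Cth, the gamma-lyase that makes cysteine from cystathionine (chr3:157894248-157925077), was 345, 121, 185 and 340.4 at 22 °C and 0 h and 5.11, 11.2, 12.1, 23.8 and 32.4 at 24 h. For 30 °C they were 171, 272, 132, 118 and 103 at 0 h and 126, 105, 240.4, 56.9 and 77.3 at 24 h. All libraries at 22 °C and 24 h lay under the lowest at 30 °C, whose values at 24 h overlapped those at 0 h. The interaction was 3.42 ± 0.60 (limma adjusted p = 0.00033).
In the neighbouring methionine cycle, Bhmt, which remethylates homocysteine, went from 3844 ± 1256 to 1087 ± 538 at 22 °C and from 1699 ± 254 to 4708 ± 2729 at 30 °C (interaction 3.09 ± 0.55), with both changes past the threshold. Mat1a, which makes S-adenosylmethionine, rose at both temperatures, from 4293 ± 755 to 7525 ± 1819 at 22 °C and from 3723 ± 547 to 14644 ± 1563 at 30 °C (interaction 1.19 ± 0.25). Both were named after their values were seen. In tryptophan breakdown, Acmsd, which steers the pathway away from NAD synthesis, went from 81.03 ± 32.8 to 17.9 ± 8.85 at 22 °C and from 47.4 ± 25.3 to 124 ± 53.8 at 30 °C (interaction 3.52 ± 0.75, limma adjusted p = 0.0026). Kynu, a kynureninase of the same pathway, went from 62.7 ± 3.69 to 15.97 ± 10.005 at 22 °C and from 59.3 ± 14.04 to 71.8 ± 12.01 at 30 °C (interaction 2.42 ± 0.42). Hgd, which opens the ring of homogentisate in tyrosine breakdown, went from 499 ± 93.5 to 95.4 ± 19.5 at 22 °C and from 354 ± 151 to 335 ± 44.7 at 30 °C (interaction 2.40 ± 0.35). Oat, ornithine aminotransferase, differed by -1.53 ± 0.27 between the temperatures at 0 h, where it was lower at 30 °C, and its interaction was 2.28 ± 0.37.

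Genes of the mitochondrial respiratory chain had small interactions, nearly all of the same sign. The list holds 83 tested nuclear genes for subunits of complexes I to IV and of ATP synthase, of which 77 had a value above 0, 18 were called higher and 0 lower, with a median of 0.53. At 22 °C 41 fell and 3 rose, and at 30 °C 6 fell and 15 rose. Ndufc1, of complex I, went from 241 ± 56.9 to 130.3 ± 32.6 at 22 °C and from 191 ± 57.8 to 276 ± 43.7 at 30 °C (interaction 1.47 ± 0.32, limma adjusted p = 0.0028). Atp5c1, the gamma subunit of ATP synthase, went from 1194 ± 213 to 566 ± 119 at 22 °C and from 1172 ± 168 to 1017 ± 101 at 30 °C (interaction 0.89 ± 0.20). Uqcrh, of complex III, and Ndufab1, of complex I, had interactions of 1.01 ± 0.24 and 1.11 ± 0.27, and the adjusted p of Ndufab1 was 0.0504 without the 3 deepest libraries. The number called depended on single libraries. It was 6 without the 3 deepest, 9 without replicate 5 at 30 °C and 24 h, 9 without replicate 3 at 22 °C and 24 h and 11 without replicate 3 at 30 °C and 0 h. Leaving out replicate 1 or 4 at 22 °C and 0 h gave 11 and 10.
Fatty acid oxidation, the supply of fuel to that chain in fasting, had 9 called members higher and 1 lower of 41 (median 0.55). This is a share of 24.4% beside 8.95% of all tested genes. The number higher was 6 without replicate 3 at 30 °C and 0 h. Fabp1, which carries fatty acids inside hepatocytes, fell at both temperatures and further at 22 °C, from 2471 ± 782 to 237 ± 94.7 at 22 °C and from 2489 ± 437 to 1162 ± 419 at 30 °C (interaction 2.26 ± 0.39, limma adjusted p = 0.00027). Eci1, an isomerase of mitochondrial oxidation, went from 118 ± 29.9 to 31.9 ± 6.15 at 22 °C and from 99.2 ± 19.3 to 95.2 ± 15.8 at 30 °C (interaction 1.79 ± 0.31), and Acadm, the medium-chain dehydrogenase, had an interaction of 1.09 ± 0.24. Bdh1, the last enzyme of ketone body synthesis, had one of 1.59 ± 0.34. Enho, which encodes the secreted peptide adropin, went from 31.5 ± 7.24 to 2.25 ± 2.36 at 22 °C and from 26.5 ± 5.27 to 34.8 ± 15.9 at 30 °C and had one of the 10 largest positive interactions (3.94 ± 0.69, limma adjusted p = 0.00030). Its mean at 22 °C and 24 h lay below 3 reads, so this size depends on the 1 added before the log.

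Secreted plasma proteins divided by kind. Acute phase proteins rose at both temperatures, 28 of 33 at 22 °C and 29 at 30 °C. Their interactions went both ways, 6 called positive and 5 negative (median 0.11). Without the 3 deepest libraries these counts were 3 and 2. The count higher was 3 without replicate 2 at 22 °C and 0 h, 3 without replicate 2 at 22 °C and 24 h and 3 without replicate 5 at 30 °C and 24 h. The count lower was 3 without replicate 4 at 22 °C and 0 h.
Orm2, an orosomucoid that binds drugs and lipids in plasma (chr4:63362449-63365878), was 37.5, 38.7, 35.9 and 26.2 at 22 °C and 0 h and 366, 489, 493, 465 and 947 at 24 h. At 30 °C it was 15.2, 17.2, 33.3, 14.5 and 26.9 at 0 h and 2281, 1599, 1749, 1573 and 2474 at 24 h. All libraries at 24 h stood above all at 0 h, and those at 30 °C lay above all at 22 °C although their values at 0 h overlapped. The interaction was 2.59 ± 0.35 (limma adjusted p = 1.1e-05). Orm1 went from 675 ± 102 to 7459 ± 521 at 22 °C and from 535 ± 23.2 to 10726 ± 1624 at 30 °C (interaction 0.84 ± 0.16), and Crp, C-reactive protein, went from 548 ± 79.5 to 291 ± 119 at 22 °C and from 471 ± 117 to 652 ± 209 at 30 °C (interaction 1.44 ± 0.32). Cd14, the LPS co-receptor, rose further at 22 °C, from 27.5 ± 7.54 to 1007 ± 157 at 22 °C and from 34.96 ± 10.1 to 329 ± 255 at 30 °C (interaction -2.20 ± 0.40, limma adjusted p = 0.00055). Saa1, serum amyloid A1, the classical acute phase protein, rose by 6.76 ± 0.20 at 22 °C and 6.80 ± 0.19 at 30 °C, with an interaction of 0.04 ± 0.28 and a 95% interval of -0.53 to 0.61. Its reads can be shared with the near-identical Saa2.
Coagulation factors and complement proteins, which the liver also secretes, had mostly positive interactions. Of 23 coagulation genes, 9 were called with a positive interaction and 1 with a negative one (median 0.81), and 13 fell at 22 °C against 7 at 30 °C. Klkb1, plasma prekallikrein, went from 321 ± 25.7 to 14.3 ± 4.38 at 22 °C and from 334 ± 42.8 to 99.4 ± 58.02 at 30 °C (interaction 2.50 ± 0.43, limma adjusted p = 0.00027). F9, coagulation factor IX, went from 278 ± 59.04 to 154 ± 13.7 at 22 °C and from 243 ± 51.6 to 288 ± 31.6 at 30 °C (interaction 1.09 ± 0.24), and Fgl1, a secreted fibrinogen-like protein, rose further at 30 °C, from 1866 ± 322 to 7306 ± 1383 at 22 °C and from 1807 ± 181 to 13856 ± 2226 at 30 °C (interaction 0.96 ± 0.18). Of 26 complement genes, 8 had a called positive interaction and 0 a negative one (30.8%, against 8.95% of all tested genes, median 0.68). C8a, a chain of the membrane attack complex, went from 1425 ± 375 to 603 ± 282 at 22 °C and from 1337 ± 246 to 1880.2 ± 586 at 30 °C (interaction 1.77 ± 0.36, limma adjusted p = 0.0014), and C8b and C4bp, a chain of the same complex and a complement inhibitor, had interactions of 1.68 ± 0.38 and 0.96 ± 0.26. Without the 3 deepest libraries 2 complement genes were called, with adjusted p = 0.061 for C8b and 0.13 for C4bp. The count was 5 without replicate 2 at 22 °C and 24 h and 5 without replicate 5 at 30 °C and 24 h.
Among 27 carrier proteins and apolipoproteins, 6 were called higher and 2 lower (29.6%, against 8.95% of all tested genes). Ahsg, fetuin-A, went from 16710.0 ± 2517 to 9052 ± 2027 at 22 °C and from 12157 ± 2354 to 14400.1 ± 1308 at 30 °C (interaction 1.17 ± 0.23), and Azgp1, zinc-alpha-2-glycoprotein, had an interaction of 0.96 ± 0.19. Apoa4, an apolipoprotein, rose further at 30 °C, from 35.7 ± 9.67 to 714 ± 105 at 22 °C and from 20.6 ± 6.39 to 1358 ± 533 at 30 °C (interaction 1.65 ± 0.35). Serpina6, corticosteroid-binding globulin, fell further at 30 °C, from 200.2 ± 79.4 to 29.6 ± 18.5 at 22 °C and from 176 ± 73.3 to 1.83 ± 0.803 at 30 °C (interaction -3.11 ± 0.50, limma adjusted p = 0.00011).

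In the lower left of the plot of changes at both temperatures, 22 called genes fell at 22 °C and fell further at 30 °C. Another 88 called genes there fell further at 22 °C. Car3, carbonic anhydrase 3, an abundant enzyme of pericentral hepatocytes (chr3:14863512-14872523), had the largest negative interaction of the called genes that the naming rule covers. At 22 °C its signal was 5412, 3501, 4459 and 3729 at 0 h and 251, 498, 279, 118 and 63.3 at 24 h. The values at 30 °C were 5903, 7016, 6878, 5512 and 3671 at 0 h and 8.52, 8.88, 9.51, 7.07 and 12.5 at 24 h. All 5 libraries at 30 °C ended within a narrow band far below the lowest at 22 °C, from 0 h values that overlapped. The interaction was -4.67 ± 0.49 (limma adjusted p = 2.5e-07), with changes of -4.45 ± 0.36 and -9.12 ± 0.34.
Thrsp, a lipogenic protein induced by thyroid hormone and feeding (chr7:97412938-97417730), fell at 30 °C. Its signal at 22 °C was 190.3, 147, 88.1 and 362 at 0 h and 139.8, 196, 280.2, 153 and 148 at 24 h. For 30 °C they were 144, 203, 271, 133 and 94.9 at 0 h and 13.8, 12.6, 9.15, 9.07 and 28.6 at 24 h. Values at 22 °C overlapped between 0 h and 24 h, and all at 30 °C and 24 h were the lowest of the 19. The interaction was -3.51 ± 0.53 (limma adjusted p = 5.6e-05). Scd1, the desaturase that makes monounsaturated fatty acids, went from 3043 ± 1205 to 1239 ± 343 at 22 °C and from 6313 ± 2175 to 236 ± 49.9 at 30 °C (interaction -3.43 ± 0.50, limma adjusted p = 3.8e-05). The other called genes of fatty acid and triglyceride synthesis had positive interactions, 5 against these 2 of 25. Elovl2 and Fads1, which lengthen and desaturate polyunsaturated fatty acids, had interactions of 1.70 ± 0.34 and 1.36 ± 0.27.
Ces1d, a carboxylesterase that hydrolyses lipids, went from 81.9 ± 7.38 to 14.3 ± 5.32 at 22 °C and from 112 ± 42.4 to 0.904 ± 0.541 at 30 °C (interaction -3.31 ± 0.40, limma adjusted p = 2.3e-06). Gamt, which completes creatine synthesis, went from 115 ± 24.7 to 22.8 ± 15.4 at 22 °C and from 132 ± 26.03 to 1.72 ± 1.35 at 30 °C (interaction -3.24 ± 0.54), and Inmt, an indolethylamine methyltransferase, went from 264 ± 63.1 to 20.9 ± 14.4 at 22 °C and from 322 ± 96.01 to 1.71 ± 1.199 at 30 °C (interaction -3.16 ± 0.51). The means of Ces1d, Gamt, Inmt and Serpina6 at 30 °C and 24 h lie at or near 3 reads, so the size of their fall depends on the 1 added before the log.

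Detoxifying enzymes mostly fell at both temperatures, and their interactions went both ways. Of 46 P450s of drug and steroid metabolism, 37 fell at 22 °C and 29 at 30 °C. The interaction was called higher for 7 and lower for 4 (23.9%, against 8.95% of all tested genes). Cyp1a2, a pericentral enzyme that metabolises caffeine, went from 1274 ± 351 to 208 ± 41.4 at 22 °C and from 1199 ± 206 to 31.6 ± 10.6 at 30 °C (interaction -2.66 ± 0.36, limma adjusted p = 1.1e-05). Cyp3a11, a main drug-metabolising P450 whose reads near-identical Cyp3a copies can share, went from 5257 ± 903 to 734 ± 299 at 22 °C and from 6186 ± 1599.8 to 291 ± 174 at 30 °C (interaction -1.66 ± 0.42). Cyp17a1, a steroid hydroxylase, went from 154 ± 56.4 to 203 ± 98.1 at 22 °C and from 31.3 ± 20.6 to 442 ± 247 at 30 °C (interaction 3.47 ± 0.60), and at 0 h it was lower at 30 °C (30 °C minus 22 °C, -2.38 ± 0.44, limma adjusted p = 0.0030). Cyp4a14, a PPARα-induced fatty acid hydroxylase, went from 941 ± 298 to 762 ± 459 at 22 °C and from 895 ± 310.4 to 2190.3 ± 599 at 30 °C (interaction 1.77 ± 0.44). Leaving out the 3 deepest libraries gave 3 P450s called higher. That count was 4 without replicate 2 at 22 °C and 24 h, and the count lower was 7 without replicate 3 at 30 °C and 24 h.
Among 50 conjugating enzymes, carboxylesterases and flavin monooxygenases, 8 were called higher and 6 lower (28%, against 8.95% of all tested genes). Without the 3 deepest libraries 3 of them were called higher. Gstm1, a glutathione transferase, went from 4350.0 ± 833 to 1102 ± 207 at 22 °C and from 6922 ± 989 to 399 ± 101 at 30 °C (interaction -2.17 ± 0.35, limma adjusted p = 0.00011). Ephx2, the soluble epoxide hydrolase, went the other way, from 555 ± 52.8 to 227 ± 64.1 at 22 °C and from 593 ± 126 to 684 ± 140.4 at 30 °C (interaction 1.53 ± 0.25). Gst genes can share reads with close copies.

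Of 30 bile acid synthesis and transport genes, 7 were called with a positive interaction and 0 with a negative one (median 0.45). This is a share of 23.3% beside 8.95% of all tested genes. Without the 3 deepest libraries 4 were called. In level at 24 h, 13 members were higher at 30 °C and 5 lower, against 9.93% and 8.71% of all tested genes. Slco1b2, an uptake transporter for bile acids and drugs on the blood side of hepatocytes (chr6:141629518-141686646), fell at both temperatures. At 22 °C its signal was 854, 631, 948 and 667 at 0 h and 20.1, 16.98, 21.4, 17.3 and 65.4 at 24 h. At 30 °C it was 636, 762, 655, 599 and 539 at 0 h and 251, 126, 299, 72.2 and 199 at 24 h. The groups at 24 h did not overlap, with 22 °C the lower. The interaction was 3.02 ± 0.49 (limma adjusted p = 0.00012). Abcb11, the bile salt export pump, fell further at 22 °C as well, from 2591 ± 188 to 90.2 ± 26.3 at 22 °C and from 2539 ± 120.0 to 386 ± 176 at 30 °C (interaction 1.97 ± 0.42, limma adjusted p = 0.0027 and 0.063 without the 3 deepest libraries). Slc10a1, the sodium-dependent bile acid uptake transporter, had an interaction of 2.01 ± 0.46, and Abcb4, which exports phosphatidylcholine into bile, of 1.53 ± 0.42 (adjusted p = 0.0504 with no filter on low values). Cyp7a1, which sets the rate of bile acid synthesis, went from 38.97 ± 17.7 to 0.111 ± 0.247 at 22 °C and from 23.7 ± 22.002 to 1.32 ± 1.83 at 30 °C, with values at 24 h below 3 reads and an interaction of 2.07 ± 0.92 that did not pass (adjusted p = 0.17).

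Called genes of glucose handling and of glycolysis and hypoxia had interactions of both signs. Slc2a2, the glucose transporter GLUT2, fell further at 22 °C, from 151 ± 22.8 to 10.4 ± 5.52 at 22 °C and from 146 ± 28.1 to 63.7 ± 17.2 at 30 °C (interaction 2.64 ± 0.41, limma adjusted p = 7.5e-05). Ppp1r3c, which targets a phosphatase to glycogen, went from 42.7 ± 12.5 to 0.812 ± 1.82 at 22 °C and from 56.9 ± 18.3 to 22.7 ± 14.97 at 30 °C (interaction 3.32 ± 0.78, adjusted p = 0.08 without the 3 deepest libraries). Its mean at 22 °C and 24 h lay below 3 reads, so the size depends on the 1 added before the log. Khk, ketohexokinase, which starts fructose metabolism, and Foxo1, a factor that drives gluconeogenesis, had negative interactions, of -1.82 ± 0.35 and -0.86 ± 0.23. In all 4 of 25 glucose genes were called higher and 2 lower (24%, against 8.95% of all tested genes). Pck1, the gluconeogenic carboxykinase, went from 692 ± 191 to 734 ± 304 at 22 °C and from 653 ± 183 to 1518 ± 133 at 30 °C (interaction 1.24 ± 0.38, limma adjusted p = 0.035), and the call was lost in 12 of 31 other settings. These included leaving out any one of replicates 2 and 3 at 22 °C and 0 h, replicates 3 and 5 at 30 °C and 0 h, replicates 1 and 3 at 22 °C and 24 h and replicates 1, 3 and 5 at 30 °C and 24 h (adjusted p up to 0.12). Of 18 glycolysis and hypoxia genes, 4 were called lower and 1 higher (27.8%, against 8.95% of all tested genes), although their median was 0.17. Hif1a, the hypoxia-inducible factor, went from 16.1 ± 2.02 to 88.99 ± 33.8 at 22 °C and from 15.2 ± 2.53 to 33.4 ± 10.8 at 30 °C (interaction -1.26 ± 0.34), Bnip3, a mitophagy receptor that it induces, had an interaction of -1.11 ± 0.24, and Pfkfb3, an activator of glycolysis, of -1.76 ± 0.42. In a fit of the 4 groups alone the adjusted p of Pfkfb3 was 0.054. Of 19 growth arrest and apoptosis genes, 0 were called higher and 2 lower, a share of 10.5% beside 8.95% of all tested genes. Cdkn1a, the cell-cycle inhibitor p21, went from 12.2 ± 7.53 to 335 ± 38.9 at 22 °C and from 14.1 ± 6.11 to 118 ± 50.99 at 30 °C (interaction -1.83 ± 0.44), and Gadd45g, a growth-arrest gene, had an interaction of -2.28 ± 0.44. Sod2, the mitochondrial superoxide dismutase, rose further at 22 °C, from 481 ± 90.4 to 1778 ± 114 at 22 °C and from 563 ± 32.1 to 975 ± 181 at 30 °C (interaction -1.13 ± 0.17, limma adjusted p = 5.6e-05). Socs2, a feedback inhibitor induced by growth hormone, went from 37.6 ± 21.2 to 39.1 ± 13.3 at 22 °C and from 69.6 ± 18.6 to 16.2 ± 7.99 at 30 °C (interaction -2.26 ± 0.42).

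In the heat shock and cold-inducible lists, 3 of 13 and 1 of 8 tested members had a called interaction. Of 13 heat shock proteins and chaperones, 3 were called with a positive interaction and 0 with a negative one. This is a share of 23.1% beside 8.95% of all tested genes. All 3 fell at 22 °C and rose at 30 °C. Hsph1, a cytosolic chaperone of the HSP110 family, went from 15.5 ± 4.35 to 5.33 ± 2.80 at 22 °C and from 9.87 ± 4.09 to 23.4 ± 6.54 at 30 °C (interaction 2.68 ± 0.45, limma adjusted p = 0.00018). Hspe1, the mitochondrial HSP10, went from 663 ± 48.8 to 417 ± 80.002 at 22 °C and from 515 ± 163 to 749 ± 114 at 30 °C (interaction 1.30 ± 0.27), and Hspa1b, an inducible HSP70 whose reads its copy Hspa1a can share, went from 7.46 ± 3.26 to 3.47 ± 3.49 at 22 °C and from 7.70 ± 3.61 to 25.2 ± 14.998 at 30 °C (interaction 2.76 ± 0.67, adjusted p = 0.057 without the 3 deepest libraries). Cirbp, an RNA-binding protein induced by mild cold, was 16.3, 13.3, 11.5 and 20.5 at 22 °C and 0 h and 46.3, 68.1, 76.1, 43.05 and 21.2 at 24 h. The values at 30 °C were 11.1, 6.86, 14.2, 11.2 and 6.79 at 0 h and 8.24, 5.07, 13.9, 10.95 and 4.23 at 24 h. Its libraries at 22 °C were all above those at 30 °C at 24 h. The interaction of -1.85 ± 0.52 passed (limma adjusted p = 0.021) but not without the 3 deepest libraries (adjusted p = 0.24) or without the filter on low values (0.051). Cirbp was the 1 called member of 8 in its list, a share of 12.5% beside the same 8.95%. Rbm3, the best known of that list, went from 58.98 ± 13.01 to 409 ± 49.8 at 22 °C and from 57.2 ± 23.03 to 238 ± 38.3 at 30 °C, with an interaction of -0.68 ± 0.26 that did not pass (adjusted p = 0.10, and 0.044 without replicate 2 at 30 °C and 0 h). Body temperature is not among the labels. Of 26 unfolded protein and integrated stress response genes, 2 were called higher and 2 lower, a share of 15.4%. Atf5, a transcription factor of the mitochondrial stress response, went from 195 ± 59.1 to 147 ± 50.9 at 22 °C and from 164 ± 27.5 to 409.9 ± 83.97 at 30 °C (interaction 1.72 ± 0.33, limma adjusted p = 0.00084).

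For markers of cells other than hepatocytes the summed signal is given by group. The ranges of the sums given here overlapped between the temperatures at 24 h, and their difference was not tested. In bulk liver, fewer cells of a type and less RNA per cell cannot be told apart. The 15 Kupffer cell and macrophage markers summed to 364 to 502 at 22 °C and 0 h, 64.5 to 196 at 22 °C and 24 h, 419 to 529.9 at 30 °C and 0 h and 191 to 242 at 30 °C and 24 h. Of 13 tested, 10 fell at 22 °C and 5 at 30 °C. The interaction was called for 1 of them, a share of 7.69% beside 8.95% of all tested genes. This was Mrc1, the mannose receptor of macrophages and sinusoidal endothelium, named after its value was seen. Mrc1 went from 96.96 ± 4.66 to 3.66 ± 2.14 at 22 °C and from 94.8 ± 20.4 to 34.3 ± 7.001 at 30 °C (interaction 3.11 ± 0.67, limma adjusted p = 0.0027). The 15 endothelial markers summed to 523 to 618 and 242 to 412 at 22 °C, and to 556 to 627 and 371 to 473 at 30 °C. Of 13 tested, 3 were called higher and 1 lower, a share of 30.8% beside the same 8.95%. Clec4g, a lectin of sinusoidal endothelium, was listed at 0 in all 5 libraries at 22 °C and 24 h and at 6.78, 10.5, 20.5, 6.25 and 7.10 at 30 °C. At 0 h it was 84.3, 99.5, 38.7 and 40.05 at 22 °C and 57.5, 71.7, 52.8, 87.6 and 52.99 at 30 °C. Its interaction passed (limma adjusted p = 0.0021), but the fitted size depends on the 1 added before the log. The other 3 calls were less stable. Kdr, a receptor for vascular endothelial growth factor, had an interaction of 2.14 ± 0.68, and its call was lost in 15 of 29 other settings, among them those without any one of replicates 1, 2 and 4 at 22 °C and 0 h, replicates 2, 3 and 4 at 30 °C and 0 h, replicates 1 and 3 at 22 °C and 24 h and replicates 1, 3 and 5 at 30 °C and 24 h (adjusted p up to 0.14). Eng, endoglin, had an interaction of 1.02 ± 0.32 and lost its call in 15 of 31, among them those without any one of replicates 2, 3 and 4 at 22 °C and 0 h, replicates 1, 2 and 5 at 30 °C and 0 h, replicates 2, 3 and 4 at 22 °C and 24 h and replicates 2, 3, 4 and 5 at 30 °C and 24 h (adjusted p up to 0.095). Lyve1, a hyaluronan receptor, had an interaction of -1.62 ± 0.47 and lost its call in 7 of 31, among them those without any one of replicate 4 at 22 °C and 0 h, replicate 3 at 30 °C and 0 h and replicates 3 and 5 at 30 °C and 24 h (adjusted p up to 0.11). Ehd3, an endocytic protein that is enriched in endothelium, went from 92.2 ± 18.03 to 1.13 ± 1.33 at 22 °C and from 126 ± 19.3 to 26.2 ± 10.3 at 30 °C (interaction 3.35 ± 0.45, limma adjusted p = 1.1e-05). The 14 stellate cell markers summed to 484 to 609 at 22 °C and 506 to 751 at 30 °C at 24 h, from 594 to 692 and 654 to 967. Of 10 tested, 6 fell at 22 °C and 6 at 30 °C. The interaction was called higher for 2 and lower for 0, a share of 20% beside 8.95% of all tested genes. Lrat, which stores retinol in stellate cells, went from 35.3 ± 10.6 to 2.23 ± 2.27 at 22 °C and from 42.7 ± 11.9 to 17.1 ± 3.67 at 30 °C (interaction 2.57 ± 0.65). At 22 °C and 24 h the means of Mrc1, Ehd3 and Lrat were near or below 3 reads. The size of their interactions depends on the 1 added before the log. The 17 neutrophil and monocyte markers summed to 193 to 398 at 22 °C and 309 to 485 at 30 °C at 24 h, with Elane and Lyz1 at 0 in all libraries, and 0 of 7 tested were called. The part of these cells in the interactions of other genes was not tested.

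The largest interactions included genes outside the lists. Tnfaip8l1, of a family that regulates lipid signalling, went from 15.8 ± 6.91 to 1.41 ± 1.52 at 22 °C and from 10.8 ± 5.62 to 22.8 ± 9.89 at 30 °C (interaction 3.98 ± 0.80, limma adjusted p = 0.0014), with values at 22 °C and 24 h near 3 reads. Fam167b went from 16.8 ± 7.23 to 6.52 ± 7.01 at 22 °C and from 10.4 ± 6.33 to 37.8 ± 9.96 at 30 °C (interaction 3.69 ± 0.96). For A1bg, a plasma glycoprotein gene, and for Zfp507, a zinc finger gene, the temperatures were further apart at 0 h than at 24 h. A1bg went from 47.5 ± 34.9 to 1.41 ± 2.53 at 22 °C and from 4.56 ± 3.89 to 2.12 ± 1.66 at 30 °C (interaction 3.92 ± 0.94). Zfp507 was 61.7, 14.7, 15.8 and 1.45 at 22 °C and 0 h and 0.885, 1.30, 1.73, 0 and 0.643 at 30 °C, and its means at 24 h were 12.9 and 16.5 (interaction 3.96 ± 1.05). Cacna1d, a calcium channel gene, had an interaction of 3.62 ± 1.17 (adjusted p = 0.047) whose call was lost in 19 of 31 other settings, among them those without any one of replicates 1, 2, 3 and 4 at 22 °C and 0 h, replicates 1, 2, 3, 4 and 5 at 30 °C and 0 h, replicates 1 and 2 at 22 °C and 24 h and replicates 1, 2, 3 and 5 at 30 °C and 24 h (adjusted p up to 0.15). On the negative side, Nf1, the Ras inhibitor neurofibromin, went from 21.2 ± 28.2 to 148 ± 31.3 at 22 °C and from 30.5 ± 15.9 to 28.7 ± 14.97 at 30 °C (interaction -3.55 ± 0.69, limma adjusted p = 0.00098). Tnfrsf23, a decoy receptor for the death ligand TRAIL in mice, went from 0.927 ± 0.623 to 36.04 ± 12.3 at 22 °C and from 0.745 ± 0.808 to 2.04 ± 1.35 at 30 °C (interaction -3.44 ± 0.58). Hbp1, a transcriptional repressor of cell-cycle genes, and Snw1, a splicing factor, had interactions of -3.45 ± 0.92 and -3.36 ± 0.92. The adjusted p of Hbp1 was 0.22 and that of Zfp507 0.074 without the 3 deepest libraries. Snw1 lost its call in 3 of 30 other settings (adjusted p up to 0.062). These were no filter on low values, array weights, and leaving out replicate 1 at 22 °C and 0 h (0.054). Some group means of A1bg, Zfp507 and Tnfrsf23 lay near or below 3 reads, so the size of their interactions depends on the added 1.

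Several prominent groups had no called interaction. None of 77 cytosolic ribosomal protein genes passed, against 8.95% of all tested genes, although 63 had a value above 0 (median 0.24). None of 18 major urinary proteins, carriers of scent in mouse urine with many near-identical copies, passed either. Several genes of general interest for this response did not pass by limma. Hamp, which encodes the iron hormone hepcidin, had an interaction of 1.27 ± 0.42 (adjusted p = 0.053), which passed in 11 of 31 other settings, among them those without any one of replicates 1, 2 and 3 at 30 °C and 0 h, replicate 5 at 22 °C and 24 h and replicate 2 at 30 °C and 24 h (adjusted p down to 0.026). Igfbp1, a binding protein for insulin-like growth factors, had one of -1.27 ± 0.57 (adjusted p = 0.17, and 0.046 without replicate 4 at 30 °C and 24 h). Hspa5, the endoplasmic reticulum chaperone BiP, had one of -0.57 ± 0.31 (adjusted p = 0.28). For Alb, albumin, the value was -0.17 ± 0.20 with a 95% interval of -0.58 to 0.24, and for Igf1, the liver growth hormone target, 0.23 ± 0.23 with an interval of -0.23 to 0.69. For Cpt1a, the gate of fatty acid entry into mitochondria, it was -0.12 ± 0.35 with an interval of -0.84 to 0.60. Fgf21 and Gdf15, stress hormones with low signal, had interactions of -1.30 ± 0.85 and -0.31 ± 0.82, whose intervals of -3.03 to 0.42 and -1.98 to 1.36 were wide.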

How the data were processed

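Liver RNA of C57BL6/J mice was sequenced by a modified CEL-Seq2 protocol, which reads the 3′ ends of polyadenylated RNA. The authors used Trimmomatic, kallisto and sleuth, per the submitters' processing notes. No versions, genome build, UMI handling, sex or LPS dose were found in these sources. The authors deposited 2 signal values per gene and library. The main one is named scaled reads per base, and the second, named TPM, has a sum that differs between libraries. No source used here says how either was scaled. In each library the commonest low value was taken as 1 read, which gives the estimated depth. Of the values above 0, 23.8 to 26.4% per library lay within 0.05 reads of a whole multiple of it, so no count test was run. A floor of 3 reads covers counting error only. PCR or UMI duplicates cannot be separated.

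The design had allowed for a count test, but the deposited signal needed a log scale. Tests covered the 8702 genes whose signal averaged 5 or more over 36 libraries. They used limma 3.58.1 under R 4.3.3 (lmFit, then eBayes with its trend option) on log2(signal + 1), two-sided, with 8 group means. P-values were adjusted by Benjamini-Hochberg over all tested genes within each comparison, with a threshold of 0.05. The scale understates changes of low genes. SE and 95% intervals come from this fit, and ± beside a mean of signal is SD. Symbols matched 34406 of 34829 identifiers (GENCODE mouse release 21, GRCm38), whose coordinates are given. The fit was tested on simulated data, where it recovered part of the known changes. Promoter windows of 250 bases come from RefSeq (GRCm38.p6), and 6652 of the 8702 genes had one. The 4 shown do not overlap an annotated exon.

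The comparison, its patterns and the 46 gene lists were chosen with earlier results of these data known. Genes were named by a rule: the 10 largest called interactions of each sign with a group mean of at least 20, up to 4 called members of smallest p per list with at least 2 called, up to 5 per pattern, and 15 followed genes. Irgm1, Bhmt, Mat1a, Mrc1, Fdps and Fdft1 were named after their values were seen, as were Ciart, Cxcl12 and Ctss. Not every gene the rule allows is named, and some results are not reported here. Alternatives covered the deposited column, pseudocount, filter, scaling, groups in the fit, array weights, the replicate number and single libraries.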

Additional observations from a re-analysis of the deposited data

Results flagged for a closer look

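In 37 cases a single library lay far from the others of its group, by the size of its gap to the nearest library relative to the whole range of the group (Dixon's 95% limit). The look covered the 124 genes named in the text in 4 groups each, which are 496 groups of 4 or 5 libraries, and chance alone gives about 1 in 20. The libraries concerned numbered 15. The largest number, 10, was in replicate 3 at 30 °C and 0 h, the library with the highest neutrophil marker sum at 0 h and the lowest depth of the 19. Values below are signal. In replicate 3 at 30 °C and 0 h these were Ces1d at 40.99, Gbp6 at 95.9, Rsad2 at 443, Hspe1 at 234, Cyp3a11 at 3430.3, Slc10a1 at 275, Bdh1 at 83.3, Hif1a at 19.6, Ndufc1 at 92.7 and Atp5c1 at 887. In replicate 4 at 30 °C and 24 h these were Socs2 at 30.5, Hgd at 257, Apoa4 at 2298 and Gdf15 at 19.4. In replicate 5 at 22 °C and 24 h these were Slco1b2 at 65.4, Ppp1r3c at 4.06, Cps1 at 925 and Cxcl12 at 194. In replicate 4 at 22 °C and 24 h these were Gbp6 at 108, Dusp1 at 57.9 and Cyp7a1 at 0.553. In replicate 2 at 30 °C and 0 h these were Ephx2 at 814, Eng at 36.04 and Sqle at 11.7. In replicate 2 at 22 °C and 0 h these were Isg15 at 30.2 and Cdkn1a at 23.5. In replicate 3 at 22 °C and 24 h these were Oat at 73.3 and Igf1 at 227. In replicate 5 at 30 °C and 0 h these were Fgl1 at 2119.9 and Hamp at 68.4. In replicate 4 at 22 °C and 0 h it was Tnfaip8l1 at 5.67. In replicate 3 at 22 °C and 0 h it was Ces1d at 70.9. In replicate 2 at 22 °C and 24 h it was Cd14 at 1279.8. In replicate 4 at 30 °C and 0 h it was Igtp at 47.3. In replicate 1 at 22 °C and 0 h it was Hspa1b at 12.3. In replicate 1 at 30 °C and 24 h it was Inmt at 3.82. In replicate 1 at 22 °C and 24 h it was Hsd17b6 at 7.46.

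The change since 0 h differed between 30 °C and 22 °C, by the interaction itself (limma adjusted p under 0.05), in 779 genes, which include 113 of the genes named in the text. Their log2 interactions follow so that they can be compared. Positive interactions of at least 3 were found for Tnfaip8l1 (3.98), Zfp507 (3.96), Enho (3.94), A1bg (3.92), Fam167b (3.69), Cacna1d (3.62), Acmsd (3.52), Cyp17a1 (3.47), Cth (3.42), Msmo1 (3.41), Ehd3 (3.35), Ppp1r3c (3.32), Idi1 (3.31), Clec4g (3.28), Mrc1 (3.11), Bhmt (3.09) and Slco1b2 (3.02). Those between 2 and 3 were found for Hmgcs1 (2.95), Hspa1b (2.76), Sqle (2.70), Hsph1 (2.68), Slc2a2 (2.64), Fdps (2.63), Cyp51 (2.61), Orm2 (2.59), Lrat (2.57), Cps1 (2.56), Klkb1 (2.50), Kynu (2.42), Hgd (2.40), Oat (2.28), Fabp1 (2.26), Kdr (2.14), Fdft1 (2.08) and Slc10a1 (2.01). Smaller positive values were those of Abcb11 (1.97), Eci1 (1.79), C8a (1.77), Cyp4a14 (1.77), Atf5 (1.72), Elovl2 (1.70), C8b (1.68), Rnase4 (1.67), Apoa4 (1.65), Hal (1.63), Bdh1 (1.59), Ephx2 (1.53), Abcb4 (1.53), Gls2 (1.49), Cxcl12 (1.48), Ndufc1 (1.47) and Crp (1.44). The smallest positive ones were those of Fads1 (1.36), Ctss (1.31), Hspe1 (1.30), Pck1 (1.24), Mat1a (1.19), Ahsg (1.17), Ndufab1 (1.11), F9 (1.09), Acadm (1.09), Eng (1.02), Uqcrh (1.01), Fgl1 (0.96), Azgp1 (0.96), C4bp (0.96), Atp5c1 (0.89) and Orm1 (0.84). Negative interactions beyond -3 were found for Car3 (-4.67), Nf1 (-3.55), Thrsp (-3.51), Hbp1 (-3.45), Tnfrsf23 (-3.44), Scd1 (-3.43), Snw1 (-3.36), Ces1d (-3.31), Gamt (-3.24), Gbp2 (-3.20), Inmt (-3.16) and Serpina6 (-3.11). Those between -3 and -2 were found for Xaf1 (-2.76), Ciart (-2.74), Cyp1a2 (-2.66), Rsad2 (-2.47), Gadd45g (-2.28), Psmb10 (-2.28), Socs2 (-2.26), Cd14 (-2.20), Gstm1 (-2.17), Gbp6 (-2.16), Dusp1 (-2.11) and Igtp (-2.07). The remaining negative values were those of Hsd17b6 (-1.96), Cirbp (-1.85), Cdkn1a (-1.83), Khk (-1.82), Irgm1 (-1.81), Cebpd (-1.79), Gbp7 (-1.78), Pfkfb3 (-1.76), Cyp3a11 (-1.66), Lyve1 (-1.62), Isg15 (-1.55), H2-Q6 (-1.51), Irf7 (-1.46), Bhlhe40 (-1.39), H2-Q4 (-1.34), Tapbpl (-1.34), Hif1a (-1.26), Cxcl9 (-1.25), Sod2 (-1.13), Bnip3 (-1.11) and Foxo1 (-0.86). For Clec4g every library at 22 °C and 24 h was at 0, so that its value rests on the added 1 and gives no bound. Values of genes with a group mean near 3 reads depend on it as well.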

How the results depend on the processing

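All 779 genes kept the direction of their interaction in each of 31 other settings in which they were tested. These settings reuse libraries by which the genes were chosen, so a kept direction is little support. Of 113 called genes named in the text, 89 kept their call throughout, and of 11 not called, 3 gained one in some setting. The cause of the changes below was not tested. Other scalings, the second deposited column and pseudocounts of 0.5 or 5 gave 750 to 847 called genes. Without the 3 deepest libraries at 30 °C and 24 h, chosen after seeing the data, 422 were called (381 shared), 215 positive and 207 negative. There 1690 changes passed at 30 °C, and 745 differences between temperatures at 24 h. The patterns held 23 (opposite), 50 (22 °C further), 125 and 20 (30 °C near 0 h after or without an earlier change), and 27 and 37 (the same at 22 °C). Lists had 6 respiratory chain, 2 complement, 4 bile acid, 3 P450 and 3 conjugating genes called higher, and 3 and 2 acute phase genes higher and lower. In a fit of the 4 groups alone 213 negative interactions and 28 differences at 0 h passed, with 33 opposite, 43 at 30 °C and 39 at 22 °C near 0 h without and 31 at 22 °C after an earlier change. It had 9 respiratory chain and 3 P450 genes higher, and 3 MHC class I and 3 acute phase genes lower. With no filter on low values, 555 genes were called over more genes tested. The patterns then held 30 opposite, 92 22 °C further and 25 at 22 °C back near 0 h, and 10 respiratory chain, 5 complement, 3 acute phase, 2 P450 and 5 conjugating genes were higher. The genes passing at 22 °C alone numbered 44 with a pseudocount of 5 and 52 with a mean of at least 20, where 14 passed at 30 °C alone. Upper-quartile rescaling called 3 acute phase genes lower.
Leaving out each of the 19 libraries in turn gave 591 to 976 called genes (331 to 559 positive, 257 to 417 negative), 2911 to 3280 changes at 22 °C, 2208 to 2615 at 30 °C, and 36 to 51 and 1215 to 1783 differences at 0 h and 24 h. In the order of the patterns given above, the ranges were 26 to 58, 112 to 168, 180 to 288, 44 to 95, 32 to 66 and 36 to 84. They were 30 to 44 for 30 °C further and 62 to 107 and 23 to 57 for 22 °C and 30 °C alone. Genes at 22 °C near 0 h without an earlier change fell to 36 and 40 without replicates 2 and 3 at 22 °C and 24 h, 36 without replicate 3 at 30 °C and 0 h and 42 without replicate 3 at 30 °C and 24 h. Those at 30 °C fell to 44 without replicate 3 at 22 °C and 24 h, and the genes passing at 30 °C alone rose to 57 without replicate 5 there. Called higher were 16 to 20 cholesterol, 24 to 28 amino acid, 9 to 22 respiratory chain, 8 to 10 coagulation, 5 to 11 complement, 6 to 12 fatty acid oxidation and 5 to 8 bile acid genes. Called lower were 15 to 16 interferon gamma, 5 to 7 type I interferon and 4 to 7 MHC class I genes. Acute phase genes had 3 to 7 higher and 3 to 6 lower, P450s 4 to 8 and 4 to 7, and conjugating enzymes 6 to 9 and 5 to 8.
No pairing of samples by replicate number was seen, although these values cannot exclude one. The 27 pairs of libraries with the same number had correlations of their deviations from -0.084 to 0.11 (median 0.014). For 108 pairs with other numbers they were -0.127 to 0.103 (median -0.005). With the replicate number as a block 890 genes were called, 754 of them shared. Depth limits values near 3 reads, and 96 of the 779 genes had no group mean of 20 or more.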

Other observations

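Markers of the liver's zones were spread over both signs. Of 18 periportal genes, 4 were called higher and 1 lower (median 0.71), a share of 27.8% beside 8.95% of all tested genes. Of 16 pericentral genes, 3 were called higher and 2 lower (median 0.25), a share of 31.2% beside the same 8.95%. Whether the zones differed from each other was not tested. Hal, the histidase of periportal hepatocytes, went from 717 ± 184 to 156 ± 60.4 at 22 °C and from 724 ± 165 to 464 ± 73.5 at 30 °C (interaction 1.63 ± 0.32, limma adjusted p = 0.0012). Gls2, the liver glutaminase, went from 106 ± 23.4 to 17.9 ± 5.22 at 22 °C and from 104 ± 29.6 to 49.9 ± 10.2 at 30 °C (interaction 1.49 ± 0.34), and its call was lost without the 3 deepest libraries (adjusted p = 0.06). Hsd17b6, a steroid dehydrogenase, went from 160.2 ± 25.3 to 13.3 ± 3.44 at 22 °C and from 279.8 ± 62.2 to 6.76 ± 5.92 at 30 °C (interaction -1.96 ± 0.52), and its call was lost there too (adjusted p = 0.1). Rnase4, a secreted ribonuclease, went from 1803 ± 247 to 905 ± 189 at 22 °C and from 1189.9 ± 249.8 to 1908 ± 500.2 at 30 °C (interaction 1.67 ± 0.24, limma adjusted p = 2.7e-05).

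Of 15 circadian clock genes, 2 were called lower and 0 higher (median -0.68), a share of 13.3% beside 8.95% of all tested genes. These were Ciart, a repressor of the clock, which went from 0.632 ± 0.529 to 14.8 ± 5.20 at 22 °C and from 2.68 ± 3.89 to 2.89 ± 0.921 at 30 °C (interaction -2.74 ± 0.74), and Bhlhe40, a repressor linked to the clock, which went from 29.3 ± 7.85 to 89.6 ± 13.7 at 22 °C and from 33.2 ± 12.3 to 37.8 ± 11.9 at 30 °C (interaction -1.39 ± 0.36). Both calls were lost without the 3 deepest libraries (adjusted p = 0.059 and 0.064). Of 19 genes that respond to glucocorticoids in liver, 4 were called lower and 1 higher, a share of 26.3%. Dusp1, a phosphatase that ends MAP kinase signals, went from 13.2 ± 9.07 to 48.4 ± 5.47 at 22 °C and from 30.4 ± 20.9 to 28.3 ± 12.6 at 30 °C (interaction -2.11 ± 0.56), and its call was lost without the 3 deepest libraries (adjusted p = 0.12) and in a fit of the 4 groups alone (0.057). Of 22 hepatocyte transcription factors, 1 was called higher and 1 lower, a share of 9.09% beside 8.95% of all tested genes. The lower one was Cebpd, a factor of the acute phase response, which went from 3.75 ± 2.39 to 45.005 ± 6.58 at 22 °C and from 8.29 ± 3.15 to 28.1 ± 11.8 at 30 °C (interaction -1.79 ± 0.40, limma adjusted p = 0.0037). Of 19 cytokines and chemokines, 1 was called higher and 0 lower, a share of 5.26% beside the same 8.95%. The called one was Cxcl12, a chemokine of resting liver, which went from 458 ± 54.2 to 115 ± 44.9 at 22 °C and from 419.8 ± 44.01 to 308 ± 138 at 30 °C (interaction 1.48 ± 0.34, limma adjusted p = 0.0046). Called members of these lists whose call ended when a single library was left out are not named.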
